A study of Isodiametra pulchra with 2 samples.

Results

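Dissociated hatchlings of the acoel worm *Isodiametra pulchra*, a small animal of marine sediments, were profiled by droplet single-cell RNA-seq, and 100 of the 23786 features in the count matrix were singled out because few cells carried them and some of those cells carried many copies. Each feature is a gene-level entry of a Trinity transcriptome assembly and is known here by its identifier alone. Values are UMIs (unique molecular identifiers), each standing for a captured RNA molecule, and a barcode is the tag of a droplet. Barcodes with at least 166 UMIs in library 1 and at least 1027 UMIs in library 2 were taken as called cells. A feature was eligible when it had a UMI in at least 10 called barcodes of each library but in less than 5% of the called barcodes of each. That held for 5555 features. They were ranked in each library by their mean UMIs per detecting barcode, and the 100 with the best value of the worse of their ranks in the 2 libraries became the members. The members were thus chosen by their mean UMIs per detecting barcode, so those values are given as a description and support no test.

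Both libraries came from wild-type hatchlings whose cultures were held at 20 °C with 12 h of light and 12 h of dark and given the diatom Nitzschia curvilineata as food. Tissue was dissociated for 1 h at 25 °C in collagenase at 1 mg/ml. The libraries belong to 1 group, and they are named library 1 and library 2 by run number, so the design holds no contrast between conditions. The labels name all cells as the source, give no number of pooled animals, and name poly-A RNA and the 3′ chemistry of 10x Genomics in kit versions 2 and 3. The barcode lists hold 737280 and 6794880 entries, sizes that match those of kit versions 2 and 3 in that order, so kit and library cannot be told apart. Nothing says whether the libraries came from separate cultures. The labelled source could not be checked against cell type markers, because the files do not pair the identifiers with gene names.

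An acoel has a ciliated epidermis, muscle, nerve cells, many kinds of gland cell, a digestive tissue without a permanent gut cavity, and stem cells called neoblasts. In animals generally, gland, sensory and other specialised cells devote much of their RNA to a small set of products, so transcripts of rare specialised cells can be abundant where they occur and absent elsewhere. In droplet libraries, RNA released by broken cells is captured in every droplet and adds stray UMIs to cells that do not make the transcript. No function, family or cell type is given for any member below. Names are printed as in the matrix, and the figures leave out their common prefix.

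Library 1 held 6581711 UMIs and library 2 held 34060611. There were 4483 called barcodes in library 1 with a median of 288 UMIs, and 3275 in library 2 with a median of 1520. Barcodes within 20% of the most common total served as empty droplets, 44395 in library 1 with a median of 60 UMIs and 34039 in library 2 with a median of 318. A class of barcodes the rule did not use ran from 1.5 times the most common total up to the calling threshold, with 7425 barcodes (median 115 UMIs) in library 1 and 10790 (median 592 UMIs) in library 2. It is called below-threshold here. No barcode sequence was called in both libraries (0), although 7605 had a UMI in both. Called barcodes held 26.1% of all UMIs in library 1 and 20.6% in library 2.

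The members were rare and carried several copies in a minority of the barcodes that detected them. A member was found in a median of 1.66% of called barcodes in library 1 (range 0.223% to 4.82%) and 2.40% in library 2 (0.336% to 4.92%). Empty droplets held a UMI of a member in a median of 0.489% of barcodes in library 1 and 0.890% in library 2, where the median total was 60 and 318 UMIs. All 100 members were found in a larger share of called than of empty barcodes in both libraries, as were all 5455 other eligible features. The ratio of these shares had a median of 3.43 in library 1 and 2.34 in library 2 for the members, against 6.69 and 7.11 for the other eligible features.

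Mean UMIs per detecting barcode ran from 1.51 to 5.73 in library 1 with a median of 1.94, and from 1.96 to 34.1 in library 2 with a median of 3.29. The other eligible features had medians of 1.04 in library 1 and 1.11 in library 2. The label of high copy held for few barcodes of each member. The median detecting barcode carried 1 UMI for 99 of 100 members in library 1 and for 90 in library 2, and barcodes with exactly 1 UMI made up a median of 75.7% and 67.4% of a member's detecting barcodes. The barcode with the most copies of a member held a median of 16 UMIs in library 1 and 31 in library 2. A barcode with at least 10 UMIs existed for 70 members in library 1 and 98 in library 2, and a barcode with at least 100 UMIs for 1 and 19 members.

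**Figure D1:**
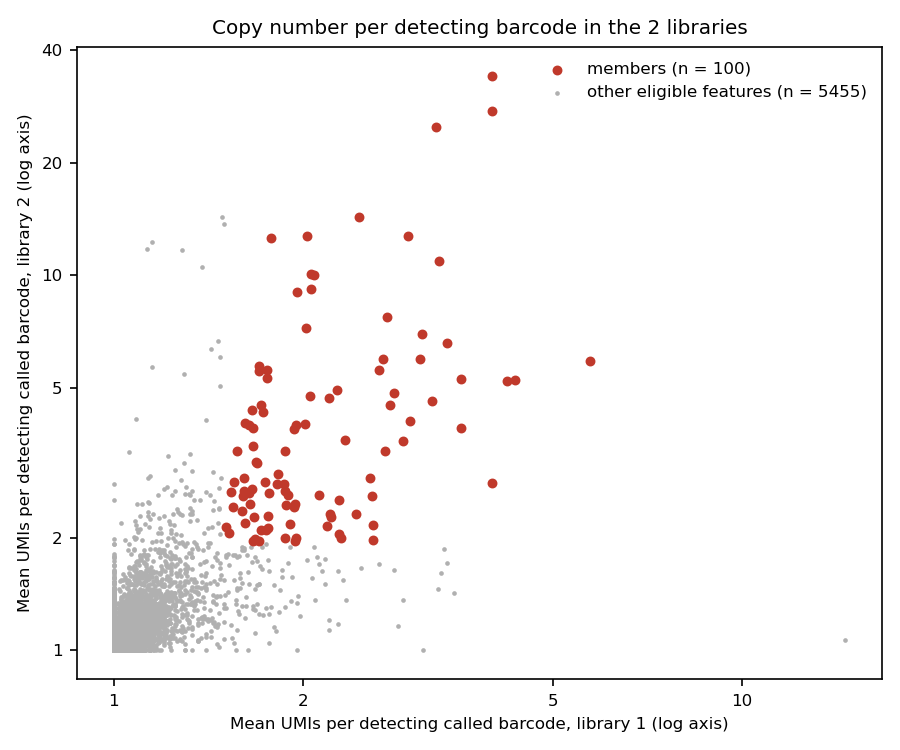
Mean UMIs per detecting called barcode in library 1 (horizontal, log axis) and library 2 (vertical, log axis), with the 100 members in red and the 5455 other eligible features in grey. The members begin at 1.51 UMIs in library 1 and 1.96 in library 2 because the rule asked for a good rank in both, and the grey point far to the right had a mean of 14.6 in library 1 and 1.07 in library 2.

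The members together held 18438 of the UMIs of called barcodes in library 1, or 1.07%, and 42064 in library 2, or 0.600%. At least 1 UMI of a member was present in 79.5% of called barcodes in library 1 and in 84.5% in library 2. At least 2 UMIs of the same member were present in 1171 barcodes of library 1 (26.1%) and 1291 of library 2 (39.4%), and at least 10 UMIs in 212 and 388. In the most loaded barcode, members made up 18.4% of all UMIs in library 1 and 30.2% in library 2. Most called barcodes held at most 1 UMI of any member, and a small number held many.

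The member with the best place was TRINITY_DN22080_c0_g2. It was detected in 83 called barcodes of library 1 (1.85%, exact binomial 95% interval 1.48% to 2.29%) with a mean of 4.0 UMIs and a highest value of 37. In library 2 it was detected in 161 barcodes (4.92%, 4.2% to 5.71%) with a mean of 27.4 UMIs and a highest value of 718. The intervals given for shares cover counting error only. Most of its detecting barcodes held 1 UMI in both libraries, 73.5% in library 1 and 62.1% in library 2, and 14 and 25 barcodes held 10 or more.

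TRINITY_DN26570_c0_g1 came next, with a mean of 4.0 UMIs over 38 barcodes in library 1 and 34.1 UMIs over 132 barcodes in library 2, the highest mean of any eligible feature in library 2. Its barcode with the most copies held 28 UMIs in library 1 and 606 in library 2. Both of these members took a larger mean percent of the barcode's UMIs in library 2 than in library 1, a direction seen in 6 of 100 members and 6 of 5455 other eligible features. For TRINITY_DN22080_c0_g2 the mean was 0.921% of the barcode total in library 1 and 1.17% in library 2, and for TRINITY_DN26570_c0_g1 0.757% and 1.26%. Raw mean UMIs were higher in library 2 for 93 of the 100 members and for 81.0% of the other eligible features. Library 2 had the larger totals per called barcode.

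TRINITY_DN29924_c0_g1 was among the rarest of the leading members. It was found in 31 barcodes of library 1 with a mean of 3.26 UMIs and in 36 barcodes of library 2 with a mean of 24.9. The barcode with the most copies held 11.9% of its UMIs in library 1 and 31.1% in library 2. TRINITY_DN17630_c0_g2 was among the more widespread, in 190 barcodes of library 1 (4.24%, mean 3.09 UMIs) and 147 of library 2 (4.49%, mean 6.99 UMIs). Its share of empty droplets was 1.71% in library 1 and 1.39% in library 2.

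TRINITY_DN21101_c0_g1 had a mean of 3.30 UMIs over 47 barcodes in library 1 and 10.9 over 73 in library 2. TRINITY_DN20352_c0_g1 had a mean of 3.40 UMIs over 91 barcodes and 6.62 over 101. TRINITY_DN27395_c0_g1 averaged 2.93 UMIs over 123 barcodes in library 1 but 12.8 over 49 in library 2. Each had a block of barcodes with 1 UMI and a thin tail. The tail of TRINITY_DN21101_c0_g1 reached 30 UMIs in library 1 and 154 in library 2, that of TRINITY_DN20352_c0_g1 72 and 139, and that of TRINITY_DN27395_c0_g1 40 and 126.

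**Figure D2:**
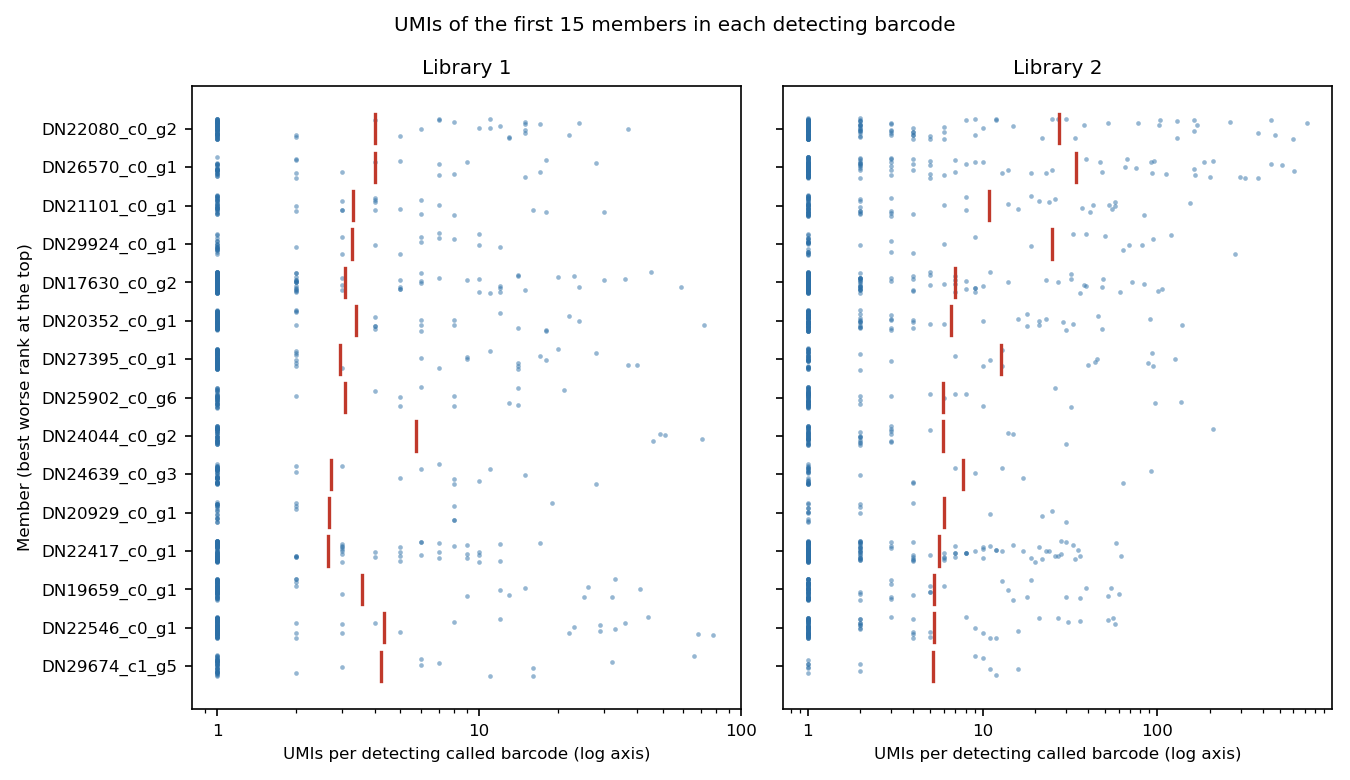
UMIs of the 15 members with the best worse rank in every called barcode that detected them (horizontal, log axis), library 1 on the left and library 2 on the right, with a red bar at each mean. Most points of each member stand at 1 UMI, and tails reach 78 UMIs in library 1 and 718 in library 2.

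TRINITY_DN24044_c0_g2 showed the sharpest break between lone and high copies. In library 1, 91.1% of its 45 barcodes held 1 UMI and the other 4 held 46, 49, 51 and 71, which gave the highest mean of any member in that library, 5.73 UMIs. In library 2 it had 58 barcodes with a mean of 5.93 UMIs, and 1 barcode of 207 UMIs held 60.2% of all its copies. Without the top barcode its mean was 4.25 in library 1 and 2.40 in library 2. TRINITY_DN24639_c0_g3 rested on few barcodes too, with 4 barcodes of at least 10 UMIs in each library and 39.5% of its library 2 copies in 1 barcode.

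TRINITY_DN22546_c0_g1 and TRINITY_DN19659_c0_g1 had higher means in library 2 under the rule, but not with a fixed minimum of 500 UMIs in both libraries. TRINITY_DN22546_c0_g1 averaged 4.35 UMIs over 115 barcodes in library 1 and 5.27 over 85 in library 2. TRINITY_DN19659_c0_g1 averaged 3.57 UMIs over 79 barcodes and 5.30 over 86. At 500 UMIs the means of TRINITY_DN22546_c0_g1 were 9.37 in library 1 and 2.72 in library 2, and those of TRINITY_DN19659_c0_g1 6.71 and 2.73. That minimum kept 931 barcodes of library 1 and 12652 of library 2, against 4483 and 3275 called ones. It thus dropped most called barcodes of library 1 and took in many below-threshold barcodes of library 2, so these means are not like for like. The mean percent of the barcode total held by TRINITY_DN22546_c0_g1 was 0.673% in library 1 and 0.185% in library 2.

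The remaining members of the leading 15 were TRINITY_DN25902_c0_g6 (mean 3.07 UMIs in library 1 and 5.97 in library 2), TRINITY_DN20929_c0_g1 (2.68 and 6.0), TRINITY_DN22417_c0_g1 (2.64 and 5.61) and TRINITY_DN29674_c1_g5 (4.23 and 5.23). TRINITY_DN29674_c1_g5 was found in 48 barcodes of library 1 but in 13 of library 2, close to the minimum of 10. TRINITY_DN22417_c0_g1 had the flattest distribution of them, with 33 barcodes at 2 or more UMIs in library 1 and 70 in library 2, and no more than 6.95% of its UMIs in any barcode.

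Some means hung on a few barcodes. The top barcode held a median of 12.5% of a member's UMIs in library 1 and 16.0% in library 2. The largest such share in library 1 was that of TRINITY_DN30966_c0_g3, 46.0%, from a barcode of 29 UMIs among 31 detecting barcodes, and its mean fell to 1.13 UMIs without that barcode, against 2.03 with it. In library 2 the largest was that of TRINITY_DN13098_c0_g1, 68.5%, with 63 UMIs in 1 of 21 barcodes and a mean of 1.45 UMIs without it, against 4.38 with it. At least 50% of the UMIs stood in 1 barcode for 0 members in library 1 and 6 in library 2, and in 5 barcodes for 30 and 47. Among the other eligible features the shares were 0.037% and 0.128% for 1 barcode, and 6.80% and 2.82% for 5.

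At the edge of the rule, the last members were TRINITY_DN18986_c0_g1 (mean 1.71 UMIs in library 1 and 1.96 in library 2), TRINITY_DN20990_c0_g1 (1.94 and 1.96) and TRINITY_DN26293_c0_g1 (1.51 and 2.14). Just outside stood TRINITY_DN21866_c0_g3 (1.5 and 13.7), TRINITY_DN31784_c0_g1 (1.75 and 1.92) and TRINITY_DN32516_c0_g1 (1.48 and 14.3). Features outside the rule on 1 library alone could thus have far higher means in the other than many members had.

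The detecting barcodes of a member, most of which held 1 UMI of it, had a median total of 372.5 UMIs in library 1 and 1633 in library 2 (medians over members). That was above the 288 and 1520 of all called barcodes and below the 407 and 1887 of the other eligible features. The barcodes with the highest doublet scores made up a median of 2.65% of a member's detecting barcodes in library 1 and 3.24% in library 2, against 3.59% and 2.63% of all called barcodes. With every called barcode thinned to 166 UMIs, the median share of barcodes detecting a member was 0.937% in library 1 and 0.489% in library 2, and 80 of the 100 members had the larger thinned share in library 1. Without thinning, the median share was the smaller one in library 1.

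The members' RNA was also present outside the called barcodes. Called barcodes held a median of 27.1% of a member's UMIs in library 1 and 21.9% in library 2, against 27.9% and 22.0% for the other eligible features. As counts per 1000000 UMIs (CPM), the level in called barcodes over that in empty droplets had a median of 1.05 in library 1 and 1.15 in library 2 for the members, and 1.11 and 1.19 for the others. This ratio was below 1 for 41 members in library 1, 46 in library 2 and 31 in both, against 40.5%, 38.1% and 23.6% of the other eligible features, so that the share in library 1 was that of the background. It was above 2 in both libraries for 13 members and for 9.64% of the others. The source of the UMIs in empty droplets was not tested.

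Barcodes below the threshold gave the same measure in droplets the rule had not used. Mean UMIs per detecting barcode there had a median of 1.08 in library 1 and 1.53 in library 2 for the members, against 1.00 and 1.05 for the other eligible features. Among members found in at least 10 such barcodes, 80 of 92 in library 1 and 99 of 100 in library 2 lay above the median of the eligible features, against 1566 of 3861 and 2652 of 5402 others. In library 1 the difference in medians was a small part of a UMI. Members were also found in more below-threshold barcodes than the other eligible features. The median number was 63.5 against 16 in library 1 and 157.5 against 77 in library 2. More detecting barcodes give more chances of a barcode with 2 UMIs. The part of this difference in the counts above the median was not tested. Of the 100 members, 22 in library 1 and 49 in library 2 were among the 100 eligible features with the highest mean there (with ties), and 16 were in both.

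TRINITY_DN24639_c0_g3 kept the highest mean of any member in the below-threshold barcodes of library 2, 4.90 UMIs, against 7.77 in called ones. TRINITY_DN21101_c0_g1 had 4.50 UMIs there, and 10.9 in called barcodes. TRINITY_DN22080_c0_g2 and TRINITY_DN26570_c0_g1 had 2.49 and 3.38 UMIs below the threshold of library 2, and 1.02 and 1.00 UMIs in library 1, which is the level of lone copies.

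Across the 5555 eligible features, the Spearman correlation of mean UMIs between the libraries was 0.497, and across the 100 members it was 0.430. Between called and below-threshold barcodes it was 0.250 over 3953 features in library 1 and 0.595 over 5502 in library 2. These are descriptions across features that share libraries and depth, and features of a library are not independent replicates.

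Which members shared barcodes was not used by the rule. A barcode counted for a member when it held at least 2 UMIs of it, and a pair was linked when at least 3 barcodes were shared and the Jaccard index, the shared barcodes as a part of all barcodes of either member, was at least 0.2 in each library. Of 4950 pairs, 74 were linked in library 1 and 94 in library 2, and 71 in both, which is 95.9% of the links of library 1 and 75.5% of those of library 2. Joined pairs formed 12 groups with 40 members, 6 of at least 3 members and 6 of 2, and 60 members were in no group. The groups are described as sets of barcodes that share members, and no cell type is given to them.

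**Figure D3:**
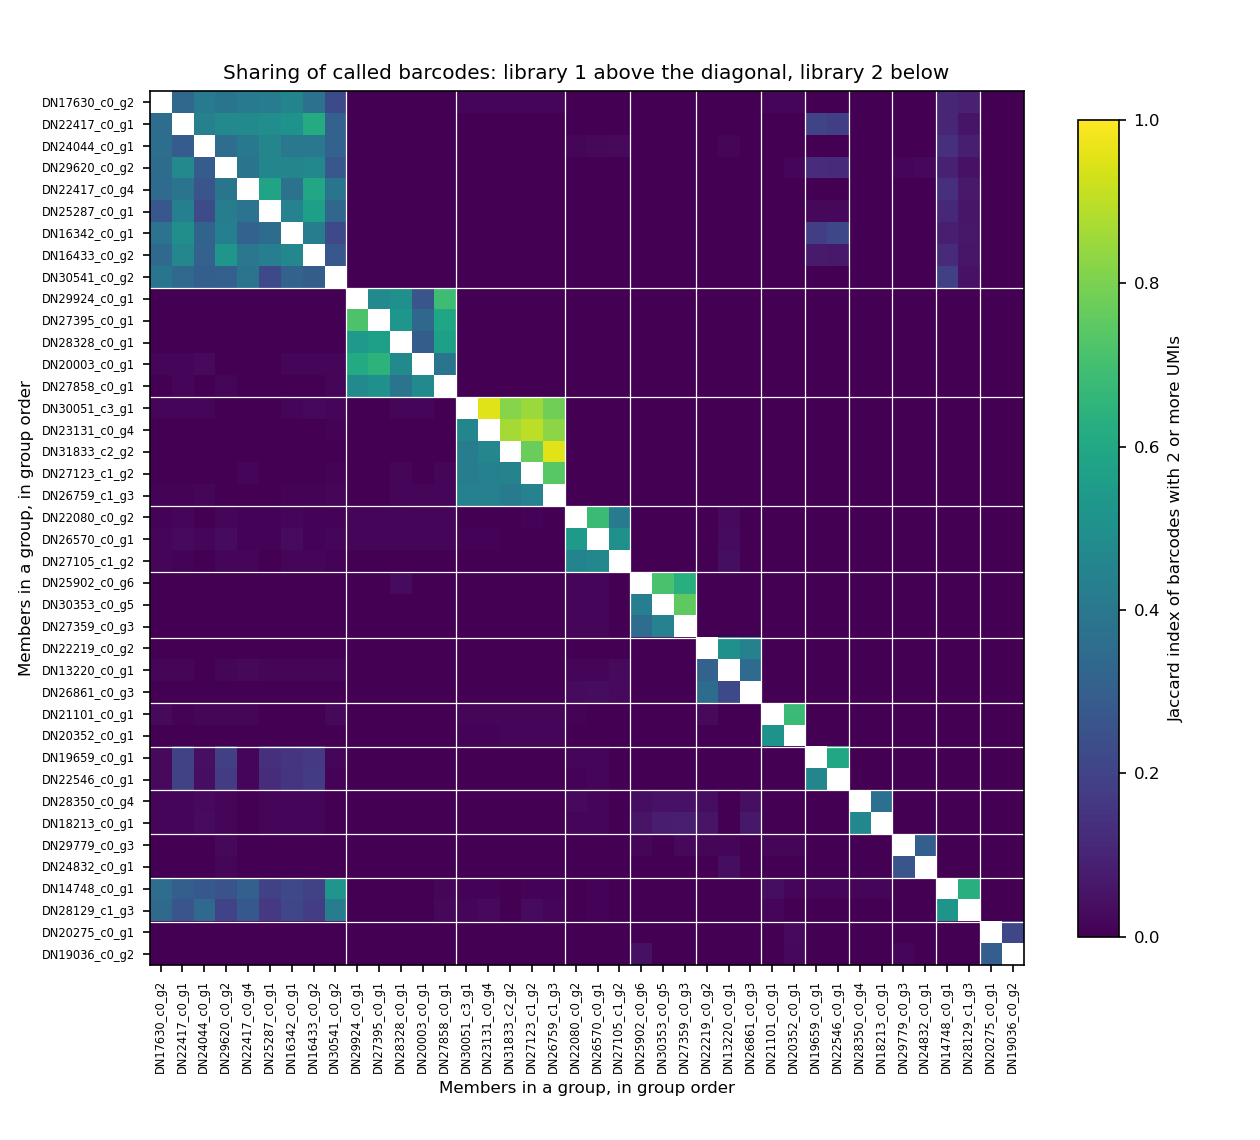
Jaccard index of the called barcodes with at least 2 UMIs for each pair of the 40 grouped members, library 1 above the diagonal and library 2 below it, with white lines between the 12 groups. Bright blocks lie on the diagonal on either side, and the blocks outside it join the group of 9 at the top left to the pairs led by TRINITY_DN19659_c0_g1 and TRINITY_DN14748_c0_g1.

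The largest group joined 9 members, TRINITY_DN17630_c0_g2, TRINITY_DN22417_c0_g1, TRINITY_DN24044_c0_g1, TRINITY_DN29620_c0_g2, TRINITY_DN22417_c0_g4, TRINITY_DN25287_c0_g1, TRINITY_DN16342_c0_g1, TRINITY_DN16433_c0_g2 and TRINITY_DN30541_c0_g2. At least 2 of its members at 2 or more UMIs each were present in 46 called barcodes of library 1 and 75 of library 2, and some barcodes held all 9. Those barcodes were large, with a median total of 826.5 UMIs in library 1 and 2429 in library 2, against 288 and 1520 over all called barcodes. The group made up a median of 3.62% of their UMIs in library 1 and 1.13% in library 2. TRINITY_DN22417_c0_g1 and TRINITY_DN22417_c0_g4 come from the same assembly component and can share reads, so their link is uncertain.

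In barcodes with at least 2 UMIs of another member of that group, TRINITY_DN17630_c0_g2 was found in 41 of 80 (51.2%, exact binomial 95% interval 39.8% to 62.6%) in library 1 and 57 of 144 (39.6%, 31.5% to 48.1%) in library 2. In the other called barcodes it was found in 3.38% and 2.87%, at a mean of 1.09 and 1.13 UMIs where detected. TRINITY_DN22417_c0_g1 was found in 50% of the barcodes with another member in library 1 and 48.3% in library 2, against 1.32% and 2.87% of the rest.

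The group of TRINITY_DN29924_c0_g1, TRINITY_DN27395_c0_g1, TRINITY_DN28328_c0_g1, TRINITY_DN20003_c0_g1 and TRINITY_DN27858_c0_g1 was found in 15 barcodes of library 1 and 13 of library 2. It took up more of its barcodes than any other group in library 2. Its 5 members made up a median of 8.62% of the barcode's UMIs in library 1 and 15.6% in library 2, with highest values of 17.1% and 24.3%. These barcodes held 65.7% of all the group's UMIs in called barcodes of library 1 and 92.7% in library 2.

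Means in barcodes with another member of a group count barcodes without the feature as 0. In that group TRINITY_DN27395_c0_g1 had a mean of 11.8 UMIs in the 21 barcodes of library 1 that held another member. It was found in 17 of them (81.0%), and the median was 9.0 UMIs. TRINITY_DN28328_c0_g1, the member with the most copies there in library 2, averaged 81.4 UMIs over 25 such barcodes and reached 408, but its median was 6.0. In the other called barcodes of library 2 it was found in 4.28%, at a mean of 1.06 UMIs where detected. Detection over a wide set of barcodes at 1 UMI and high copy in a small set thus stood side by side for the same feature.

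The group of TRINITY_DN30051_c3_g1, TRINITY_DN23131_c0_g4, TRINITY_DN31833_c2_g2, TRINITY_DN27123_c1_g2 and TRINITY_DN26759_c1_g3 differed in the size of its barcodes. Its 22 called barcodes in library 1 had a median total of 232.5 UMIs and its 56 in library 2 of 1445.5, both below the medians of all called barcodes. It was also found in 23 below-threshold barcodes of library 1 and 172 of library 2, the most of any group. Its pairs had Jaccard indices of 0.739 to 0.955 in library 1, the upper value being the highest of any linked pair. In the called barcodes of library 1 that held another member, detection of the 5 members ran from 87.0% to 95.7%.

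In this group, TRINITY_DN30051_c3_g1 was found in 21 of 23 such barcodes of library 1 (91.3%) and 57 of 76 of library 2 (75%), against 0.740% and 1.47% of the others. Its mean over all those barcodes was 4.61 UMIs in library 1 and 2.75 in library 2. The group made up a median of 9.81% of its barcodes' UMIs in library 1 and 0.709% in library 2.

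TRINITY_DN22080_c0_g2 and TRINITY_DN26570_c0_g1, the members with the best places, shared a group with TRINITY_DN27105_c1_g2 and no other member. At least 2 of these were present in 16 barcodes of library 1 and 44 of library 2. TRINITY_DN22080_c0_g2 was found in all 16 of the barcodes of library 1 that held another of them (exact binomial 95% interval from 79.4%), with a mean of 13.6 UMIs. In library 2 it was found in 48 of 58 (82.8%), with a mean of 73.0 UMIs over all 58 but a median of 4.5. TRINITY_DN26570_c0_g1 averaged 6.0 UMIs over 22 such barcodes and 70.2 over 62, with medians of 2.5 and 4.5. The 3 members together made up as much as 10.6% of a barcode in library 1 and 30.2% in library 2, and 96.2% of their library 2 UMIs in called barcodes stood in the 44 barcodes.

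The other groups of 3 were smaller. TRINITY_DN25902_c0_g6, TRINITY_DN30353_c0_g5 and TRINITY_DN27359_c0_g3 shared 12 barcodes of library 1 and 7 of library 2, and TRINITY_DN30353_c0_g5 was found in 12 of 16 and 7 of 14 barcodes that held another of them. TRINITY_DN22219_c0_g2, TRINITY_DN13220_c0_g1 and TRINITY_DN26861_c0_g3 shared 12 and 10 barcodes with median totals of 680.5 and 3276.5 UMIs. TRINITY_DN22219_c0_g2 averaged 5.25 UMIs in library 1 and 3.61 in library 2 in the barcodes that held another of that group. Its medians there were 3.5 and 1.5. TRINITY_DN26861_c0_g3 was nearly absent from the other called barcodes of library 1, found in 1 of 4459. In library 2 it was found in 20 of 3256 of them (0.614%), at a mean of 2.0 UMIs where detected.

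The 6 pairs were TRINITY_DN21101_c0_g1 with TRINITY_DN20352_c0_g1, TRINITY_DN19659_c0_g1 with TRINITY_DN22546_c0_g1, TRINITY_DN28350_c0_g4 with TRINITY_DN18213_c0_g1, TRINITY_DN29779_c0_g3 with TRINITY_DN24832_c0_g1, TRINITY_DN14748_c0_g1 with TRINITY_DN28129_c1_g3, and TRINITY_DN20275_c0_g1 with TRINITY_DN19036_c0_g2. They rested on 3 to 15 barcodes in library 1 and 3 to 28 in library 2. The closest in library 1 was that of TRINITY_DN21101_c0_g1 and TRINITY_DN20352_c0_g1, with a Jaccard index of 0.682 in library 1 and 0.512 in library 2. The thinnest was that of TRINITY_DN20275_c0_g1 and TRINITY_DN19036_c0_g2, with 3 shared barcodes in each library, the minimum for a link. For TRINITY_DN28350_c0_g4 and TRINITY_DN18213_c0_g1, 4 of their 7 barcodes in library 2 were among those with the highest doublet scores. All 71 links, this one included, were kept when the barcodes with the highest scores were left out. The part of doublets in that link was not tested otherwise.

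Most barcodes with a group held only 1. A group was present in 157 called barcodes of library 1 (3.50%) and 244 of library 2 (7.45%). At least 2 groups were present in 11 and 48 of these, or 7.01% and 19.7%. In library 1 the largest overlap, 8 barcodes, was between the group of 9 and the pair of TRINITY_DN19659_c0_g1 and TRINITY_DN22546_c0_g1. In library 2 it was 26 barcodes, between the group of 9 and the pair of TRINITY_DN14748_c0_g1 and TRINITY_DN28129_c1_g3. That pair had 28 barcodes in library 2, so nearly all of them also held the group of 9, and links between them passed the Jaccard minimum in library 2 alone. Barcodes with 2 or more groups were larger than those with 1, with median totals of 948 against 483.5 UMIs in library 1 and 2733.5 against 1728.5 in library 2. Of the barcodes with a group, 0 in library 1 and 7 in library 2 (2.87%) were among those with the highest doublet scores, which made up 3.59% and 2.63% of all called barcodes.

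The groups were looked for again in below-threshold barcodes, which had no part in forming them. Of the 71 linked pairs, 16 shared at least 1 below-threshold barcode in library 1 (22.5%) and 66 in library 2 (93.0%). Sharing 1 barcode is a far weaker condition than the linking rule. The median Jaccard index of the linked pairs there was 0.0 in library 1 and 0.108 in library 2. In called barcodes it was 0.456 and 0.419. No pair of the largest group exceeded 0.139 below the threshold of library 2. Of the 4879 pairs that were not linked, 40 did in library 1 (0.820%) and 552 in library 2 (11.3%). Most of the 16 linked pairs in library 1 came from the group led by TRINITY_DN30051_c3_g1, whose pairs each shared 6 to 16 barcodes. No other linked pair shared more than 3 there. In the largest group, the pair of TRINITY_DN17630_c0_g2 and TRINITY_DN22417_c0_g4 alone shared any, with 1 barcode. The share of linked pairs in library 1 thus rests mostly on a single group. Of the 100 members, 18 had no below-threshold barcode with 2 UMIs in library 1, and 1 had none in library 2. The part of depth in the lower share of library 1 was not tested.

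Within groups, detection beside another member was far above detection elsewhere in called barcodes. Over the 40 grouped members, a member was found in a median of 71.9% of called barcodes with another member of its group in library 1 and 51.0% in library 2, against 0.871% and 1.63% of other called barcodes. The groups were formed from these barcodes, so this is a description. In below-threshold barcodes the medians were 13.3% in library 1 and 32.4% in library 2, against 0.750% and 1.23%. The share was higher beside another member for 27 of the 38 members that could be compared in library 1 and for all 39 in library 2. Many of the 27 rested on 1 detecting barcode, such as TRINITY_DN22417_c0_g1 in 1 of 22 and TRINITY_DN24044_c0_g1 in 1 of 20. Their exact binomial 95% intervals, 0.115% to 22.8% and 0.127% to 24.9%, took in the shares elsewhere, 1.05% and 1.28%.

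TRINITY_DN30051_c3_g1 was found in 23 of 41 below-threshold barcodes with another member of its group in library 1 (56.1%) and 185 of 247 in library 2 (74.9%), against 0.799% and 1.34% of the rest. TRINITY_DN22080_c0_g2 was found in 44 of 68 in library 2 (64.7%), against 3.46%, while library 1 held 1 such barcode and the feature was not in it. TRINITY_DN17630_c0_g2 was found in 1 of 20 such barcodes in library 1 and 25 of 118 in library 2 (21.2%), against 2.92% and 2.19%. In library 1 its interval of 0.127% to 24.9% takes in the share elsewhere.

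**Figure D4:**
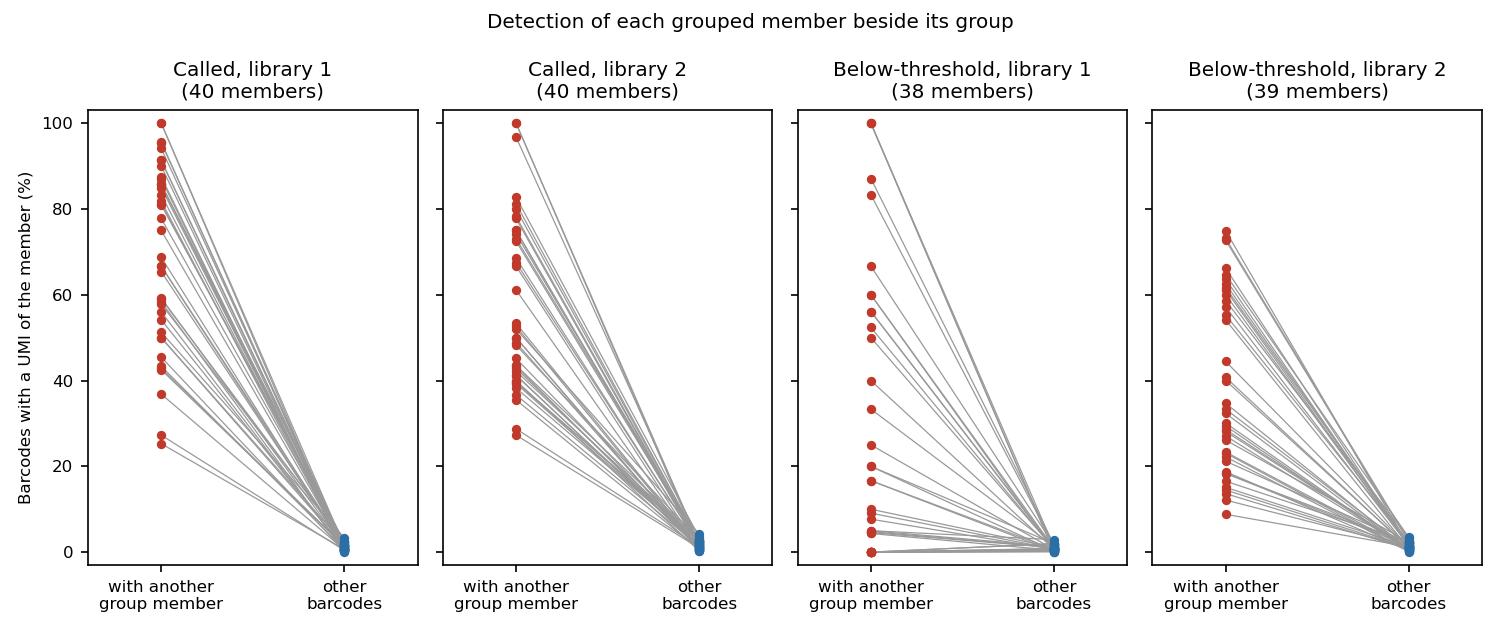
Percent of barcodes with a UMI of each grouped member, in barcodes with at least 2 UMIs of another member of its group (red) and in the other barcodes of the same kind (blue), for called and below-threshold barcodes of each library, with a line for each member. Every line falls to the right in the called barcodes and in the below-threshold barcodes of library 2, as do 27 of 38 in the below-threshold barcodes of library 1.

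The 60 members without a group included several with many high-copy barcodes. TRINITY_DN28636_c1_g4 was found in 168 barcodes of library 1 with a mean of 2.96 UMIs and 151 of library 2 with a mean of 4.09, and 14 and 13 of these held 10 or more UMIs. It was chosen for mention after its values were seen, as were the other features of this paragraph. Features outside the 100 met the same linking rule with 41 members, 63 features in all, of which 23 were eligible. Among the ungrouped members 10 had such a neighbour. TRINITY_DN26545_c0_g4 had 4, and the closest, TRINITY_DN30093_c0_g1, had Jaccard indices of 0.403 in library 1 and 0.393 in library 2.

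For grouped members, the neighbour outside the 100 with the highest value of the lower of its Jaccard indices was TRINITY_DN32516_c0_g1 with TRINITY_DN29779_c0_g3, at 0.476 in library 1 and 0.760 in library 2. In library 1 alone others were closer, such as TRINITY_DN22409_c1_g1 with TRINITY_DN31833_c2_g2 at 0.909, which had 0.310 in library 2. TRINITY_DN32516_c0_g1 missed the 100 by its rank in library 1. By the same measure TRINITY_DN21635_c0_g1 followed with TRINITY_DN22417_c0_g1, at 0.633 and 0.468, and it was not eligible, being found in 6.23% of called barcodes in library 2. TRINITY_DN27478_c0_g3 with TRINITY_DN26570_c0_g1 had 0.429 and 0.317, and a mean of 34.6 UMIs in library 2, where 9.13% of called barcodes detected it. Sharing barcodes says nothing here of shared function.

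Members seldom came from the same assembly component. The 100 members came from 96 components, 4 of which held 2 members each. Of the 71 linked pairs, 1 joined features of the same component. Each of these 4 components could give 1 pair of members at most, so few such links were possible. A component was shared with another eligible feature by 20 members (20.0%), against 27.4% of the other eligible features.

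The comparison between below-threshold and empty-droplet barcodes used no UMI of a called barcode. It asked which features were a larger part of all UMIs in droplets just under the threshold than in empty ones. UMIs were summed over each class in each library, which gave 4 sums, and tested with edgeR's quasi-likelihood F-test with the library as a block. Over the 14521 features tested, 999 were higher below the threshold (6.88%) and 82 lower (0.565%) at a Benjamini-Hochberg adjusted p under 0.05, with 2743 features at an unadjusted p under 0.05. Of the 99 members tested, 11 were higher (11.1%) and 3 lower (3.03%). The median log2 fold change was -0.14 over the members and -0.02 over all features tested, and 41 of the 99 members had a positive value.

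The calls rested on the test chosen. DESeq2 with the same block called 1 member higher and 0 lower, with 12 members at an unadjusted p under 0.05, and edgeR without the block called 0 in either direction, with 0 members and 237 features at an unadjusted p under 0.05. With 2 libraries the model had 1 residual degree of freedom, and its p-values draw on the spread of all features.

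TRINITY_DN31982_c0_g1 stood apart as the member called by both tools. Its level was 25.1 CPM below the threshold and 13.5 CPM in empty droplets in library 1, and 75.9 CPM and 16.0 CPM in library 2. The log2 fold change was 1.80 (SE 0.22), with an adjusted p of 6.93e-13 by edgeR's quasi-likelihood test and 0.0413 by DESeq2. It was higher in both libraries. In called barcodes it had 49.5 CPM in library 1 and 52.4 CPM in library 2.

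Of the group led by TRINITY_DN30051_c3_g1, 4 of 5 members were called higher. TRINITY_DN30051_c3_g1 had 118 CPM below the threshold and 77.9 CPM in empty droplets in library 1, and 115 CPM and 49.8 CPM in library 2, a log2 fold change of 0.87 (SE 0.18) with an edgeR adjusted p of 6.82e-05. TRINITY_DN31833_c2_g2 (log2 0.74), TRINITY_DN27123_c1_g2 (0.67) and TRINITY_DN23131_c0_g4 (0.54) were higher in both libraries too. Their level below the threshold exceeded that in called barcodes in both libraries. For TRINITY_DN30051_c3_g1 the called level was 81.0 CPM in library 1 and 38.4 CPM in library 2.

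The other members called higher were TRINITY_DN29779_c0_g3 (log2 fold change 1.08, SE 0.19), TRINITY_DN26545_c0_g4 (0.89), TRINITY_DN24639_c0_g3 (0.89), TRINITY_DN21101_c0_g1 (0.87), TRINITY_DN24490_c0_g1 (0.79) and TRINITY_DN26791_c0_g4 (0.65), by edgeR's quasi-likelihood test. Their ratios of CPM below the threshold over empty droplets were 0.914 to 1.41 in library 1 and 2.12 to 3.38 in library 2. TRINITY_DN24639_c0_g3 had 67.4 CPM below the threshold and 73.8 CPM in empty droplets in library 1, and 59.8 CPM and 17.8 CPM in library 2. TRINITY_DN24490_c0_g1 had a ratio of 0.924 in library 1 and 2.30 in library 2, so both were called higher while their ratio in library 1 lay just below 1.

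The members called lower were TRINITY_DN16342_c0_g1 (log2 fold change -0.68, SE 0.18), TRINITY_DN16433_c0_g2 (-0.67, SE 0.18) and TRINITY_DN21900_c0_g1 (-0.66, SE 0.21), with edgeR adjusted p-values of 0.00402, 0.00586 and 0.0293. The first and second belong to the group of 9. TRINITY_DN16342_c0_g1 had 168 CPM below the threshold and 216 CPM in empty droplets in library 1, and 40.1 CPM and 70.1 CPM in library 2. It was lower in both libraries, as were the other members called lower.

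By fold alone, 0 of the 100 members were more than 2-fold higher below the threshold than in empty droplets in both libraries, against 270 of the 5455 other eligible features (4.86% of all eligible features). With each library taken alone, 1 member passed in library 1 (1.0%) and 10 in library 2 (10.0%), against 6.58% and 19.2% of the other eligible features. The rule set no limit on the level in empty droplets.

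**Figure D5:**
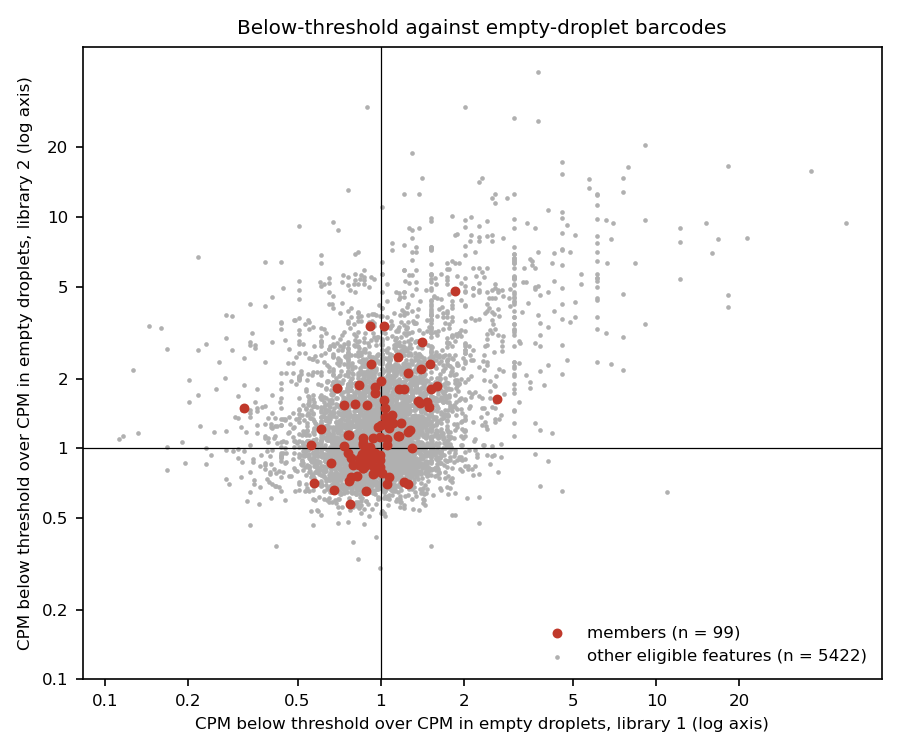
Ratio of CPM in below-threshold barcodes to CPM in empty droplets in library 1 (horizontal, log axis) and library 2 (vertical, log axis), for the 99 members (red) and 5422 other eligible features (grey) with UMIs in all 4 sums, with lines at a ratio of 1. Most members lie near 1 in library 1, and the red point highest in library 2 is TRINITY_DN31982_c0_g1 with ratios of 1.85 and 4.76.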

How the data were processed

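The authors deposited a matrix of raw UMI counts per feature and barcode that pools both libraries, with all barcodes of the kit lists, made with Cell Ranger 3.0.2 per the submitters' processing notes. The alignment reference, other settings and any depth equalisation are not given in the sources used here. Barcode suffixes 1 and 2 were matched to the run numbers in the labels. No gene names, sequences or genome were used, and 0 columns of other samples were present.

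The calling threshold of each library was the 99th percentile of its 3000 largest totals divided by 10. The most common totals, 60 and 319 UMIs, were taken after smoothing over 21 totals. No doublets were removed, because Scrublet's (scanpy 1.11.5) automatic threshold marked 0% and 0.0305% of called barcodes and had not worked. The highest scores, at 0.8% per 1000 called barcodes, gave 161 and 86 barcodes, left out as an alternative.

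Sums of counts were tested with edgeR 4.0.16 (filterByExpr, TMM, quasi-likelihood F-test, library as a block, because the sums of a library share their source), with DESeq2 1.42.0 as an alternative. On counts simulated for the 14521 features of this comparison, of which 14127 passed the filter, 63 of 100 features changed 2-fold and 91 of 100 changed 4-fold were recovered, with 7 false calls. The simulation gave every feature the same spread (dispersion 0.0164) and the same fold in both libraries. It therefore does not cover features with copies in few barcodes or with unlike folds in the libraries, as many members had. Nothing says that the libraries are separate cultures. With the library as a block, the p-values rest on how the class difference varies between these libraries, drawn towards the spread of all features. They measure no spread between cultures, and a feature whose ratio differs between the libraries can still be called. Features of 1 assembly component can share reads.

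Features named were the 15 members with the best worse rank, the leading members of each group of at least 3, and those at the edge of the rule. Also named were those most concentrated in 1 barcode and those with extreme below-threshold ratios. The latter had the largest and smallest value of the lower of their ratios in the libraries, among members with enough UMIs in each sum. Other named features were chosen after their values were seen. The members, lists and tests were chosen with earlier results of these data known.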

Additional observations from a re-analysis of the deposited data

Results flagged for a closer look

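UMIs of the members also lay in barcodes that none of the comparisons used, those that were neither called, nor just below the threshold, nor in the empty-droplet window. There were 13016 such UMIs in library 1, which is 19.5% of all UMIs of the members there, and 42116 in library 2, which is 26.4%. Members made up 0.977% of all UMIs in these barcodes in library 1 and 0.452% in library 2. Each library had far more than the 3 UMIs that a count of 0 allows, and there were no control samples to set the level against.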

How the results depend on the processing

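Membership depended on the limits of the rule. Of the 100 members, 31 were kept with a limit of 2% of called barcodes, 66 with 10%, 51 with a minimum of 500 UMIs in both libraries and 36 with barcodes thinned to 166 UMIs, and 39 to 50 with a library left out. Eligible features numbered 2271 at 2%, 8939 at 10%, and 10440 to 11040 with a library left out. The members' median of mean UMIs in library 2 was 2.18 at 2%, 4.52 at 10%, 2.0 at 500 UMIs, 1.95 after thinning and 5.61 without library 1, and in library 1 it was 2.59 without library 2. Under the other 5 alternatives (detecting barcodes, top barcode, percent of the barcode total, doublet scores) 77 to 96 members were kept. The members kept in all 11 settings were 3, TRINITY_DN29924_c0_g1, TRINITY_DN25902_c0_g6 and TRINITY_DN24044_c0_g2. Counting barcodes at 1 UMI gave 3 groups with 15 members, while the other alternatives, one without the 5% of called barcodes with the largest totals chosen after seeing the data, gave 10 to 15 groups with 36 to 57 members. With a library left out there were 12 to 15 groups and 42 to 52 members. Between below-threshold and empty barcodes, testing without a filter gave 156 features lower, 7 members higher and 5 lower. The window from 80% of the threshold gave 124 features lower. DESeq2 gave 82 features higher and 0 lower, 1 member higher and 0 lower, with 753 features at an unadjusted p under 0.05, and edgeR with no replicate block gave 0 in each, with 237. Members past 2-fold numbered 1 to 10 with a library left out. The order of the libraries turned at 500 UMIs, where the median over the 100 features chosen there was 2.38 in library 1 and 2.0 in library 2. That setting held 931 barcodes of library 1 and 12652 of library 2, against 4483 and 3275 called ones, so it compared unlike parts of the libraries. All 15 leading members were higher in library 2 under the rule. Of these, 9 were higher in library 1 at 500 UMIs, 6 after thinning and 1 without the top barcode. The median log2 fold change of all features tested was -0.02, and 0.0065 without a filter. No test was possible for the edgeR comparison without a library, since no residual degrees of freedom remain. The cause of these shifts was not tested.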

Other observations

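Some features had high copy in 1 library only. TRINITY_DN28062_c0_g1, the eligible feature with the highest mean in library 1, averaged 14.6 UMIs over 21 called barcodes there, with a median of 16 and 14 barcodes of at least 10 UMIs. In library 2 it averaged 1.07 UMIs over 15 barcodes and never exceeded 2. Its median barcode in library 1 carried many copies, unlike that of nearly every member.

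Features that met the limits in 1 library but had fewer than 10 detecting called barcodes in the other numbered 139 in library 1 and 5463 in library 2. Of these, 10 and 84 had a mean above that of the last member in that library. In library 2 the highest were TRINITY_DN22335_c2_g2, with a mean of 23.1 UMIs over 97 barcodes and 10 UMIs over 8 called barcodes of library 1, and TRINITY_DN22569_c0_g1, with a mean of 21.9 over 158 barcodes and 4 UMIs over 3. TRINITY_DN25880_c1_g1 had a mean of 13.6 over 56 barcodes and 3 UMIs over 2. In library 1 the highest was TRINITY_DN17423_c0_g1, with a mean of 4.17 UMIs over 12 barcodes and 0 UMIs in the called barcodes of library 2, where a count of 0 allows up to 3 UMIs. Kit, depth and library cannot be told apart for these features.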
